A study of Mus musculus with 30 samples.

Results

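The Polo-like kinases are described here in mouse embryonic fibroblasts (MEFs) under stress. The genes Plk1, Plk2, Plk3 and Plk4 were chosen by the gene name of their array probes, with their ratios in all groups already known, and they are 4 of the 21689 named genes on the array. Since the ratios in every group had been seen when the family was chosen, they are given as a description with no test. Total RNA was measured on 30 arrays with 44K Agilent probes, 2 arrays for each of 15 groups. On each array the treated cells carried the dye Cy5, and cDNA pooled from untreated wild type MEFs (2 cultures) carried Cy3, without a dye swap. A log2 ratio of 0 therefore means the level of that pool, which is the only control and whose own spread is not known.

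The MEFs were immortalised lines, either wild type or p38α-/-. Wild type MEFs received 25 ng/ml anisomycin (an inhibitor of protein synthesis, below a full block) for 45 min, 100 ng/ml of the cytokine TNFα for 45 min, or 100 mM NaCl, a hyperosmotic stress, for 45 min, 2 h or 8 h. The same treatments were given after the p38 inhibitor SB203580, and a further group received SB203580 alone. The treatment protocol gives 10 μM SB203580 for 30 min before the stress, whereas the sample titles give 10 mM and 2 h. The p38α-/- MEFs, which lack the kinase encoded by Mapk14, were measured without treatment, with anisomycin, with TNFα and after 2 h of NaCl. The labels do not say whether the 2 arrays of a group came from separate cultures, while the study's methods name independent experiments. In bulk RNA, fewer cells of a kind and less RNA per cell cannot be told apart. The Mapk14 probe read between -2.24 and -0.94 on the 8 p38α-/- arrays and between 0.03 and 1.31 on the 22 wild type arrays, so that no array went against its labelled genotype. All 9 fibroblast markers looked up (such as Col1a1, Col3a1 and Vim) were well above background in Cy3 on the 30 arrays, but so were all 8 markers of other cell types, so that this flag does not tell cell types apart here.

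Polo-like kinases are serine/threonine kinases that carry a polo-box domain, which binds phosphorylated partner proteins. Plk1 drives entry into mitosis, centrosome maturation and cytokinesis, and Plk4 is the kinase that starts centriole duplication. Plk2 (also Snk) and Plk3 (also Fnk or Prk) were first described as rapidly induced genes, Plk2 by serum. Both have been linked to stress responses and cell cycle arrest. The family gene Plk5 has 1 probe on this array under the name 6330514A18Rik, so the choice by gene name did not take it up.

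In RefSeq annotation of the assembly GRCm38.p6, Plk1 lies on chromosome 7 from 122159435 to 122169884, Plk2 on chromosome 13 from 110395044 to 110400844, Plk3 on chromosome 4 from 117128655 to 117133963 and Plk4 on chromosome 3 from 40799951 to 40816883. The array files name no build, and the probes are located here only through their gene. The 250 bases before the annotated start of Plk2 (chr13:110394794-110395043, plus strand) and of Plk3 (chr4:117133964-117134213, minus strand) are shown because these are the members whose ratios moved with stress. Both are from RefSeq on GRCm38.p6 and are written 5′ to 3′ along the gene, and capitals mark each TGACG on either strand, the core of a cAMP response element.
Plk2: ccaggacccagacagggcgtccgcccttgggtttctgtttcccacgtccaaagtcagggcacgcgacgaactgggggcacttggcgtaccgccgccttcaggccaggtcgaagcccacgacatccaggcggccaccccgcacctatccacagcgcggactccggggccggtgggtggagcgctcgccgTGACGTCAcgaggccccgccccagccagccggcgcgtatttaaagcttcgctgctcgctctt
Plk3: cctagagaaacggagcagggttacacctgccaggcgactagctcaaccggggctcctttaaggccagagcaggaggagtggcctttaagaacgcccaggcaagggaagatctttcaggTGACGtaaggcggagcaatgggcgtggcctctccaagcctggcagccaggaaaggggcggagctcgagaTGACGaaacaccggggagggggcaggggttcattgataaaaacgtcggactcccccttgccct
The Plk2 sequence holds the full palindrome TGACGTCA, from 62 to 55 bases before the start, in which a TGACG of each strand overlap. The Plk3 sequence holds TGACG at 2 separate places, which begin 132 and 63 bases before the start. In the same window Plk4 has 1 TGACG and Plk1 has none. Of the 32851 promoter windows of this length in the table, 17.8% hold TGACG and 1.55% hold TGACGTCA on either strand. The GC box of Sp1 factors, GGGCGG, is in 32.7% of windows on either strand, and it occurs 2 times before Plk2, once before Plk3 and once before Plk1. The CCAAT box is in 33.8% of windows and occurs once before Plk1. None of the 4 windows held the AP-1 site TGANTCA (6.75% of windows) or the CArG box of serum response factor (1.47%). Neither the cell cycle homology region, searched as TTTGAA (16.0% of windows), nor the E2F site, searched as TTTCCCGC (0.895%), was found in them. These matches describe the letters alone.

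Plk3, read by 1 probe, had the highest ratio of the family, with anisomycin. Its log2 ratio was 2.91 and 2.16 on the 2 arrays of wild type MEFs with anisomycin, a mean of 2.53 ± 0.53 (SD, n = 2) or 5.79-fold over the pool. It was 1.25 and 0.92 with TNFα, a mean of 1.08 ± 0.23 (SD, n = 2). Both anisomycin arrays were above every other array of the series, and both TNFα arrays were above the pool.

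With NaCl the ratio of Plk3 depended on the time. It was 0.36 on both arrays at 45 min, 1.19 and 0.51 at 2 h, and -0.86 and -0.24 at 8 h. The means were 0.36 ± 0.00, 0.85 ± 0.48 and -0.55 ± 0.44 (SD, n = 2 each). The arrays at 8 h were the only ones of these 3 times below the pool, and they did not overlap those at 45 min or 2 h. On the first 8 h array the Cy5 signal of Plk3 was not well above background, so that its value there is uncertain. The probe read between 138 and 378 in Cy3, and with normexp background correction and loess the mean was 1.89 with anisomycin, 0.69 with TNFα and 0.47 with NaCl at 2 h.

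Plk2, read by 1 probe, was above the pool on all 10 arrays of stressed wild type MEFs. The scanner software marked 12 of its 30 spots as outliers of uneven signal, 10 of them on second arrays, so each marked value is named as such. Its log2 ratio was 1.73 and 1.26 with anisomycin, both marked, 1.58 and 0.99 (marked) with TNFα, and 1.38 and 1.03 (marked) with NaCl for 45 min. It was 2.05 and 1.71 (marked) with NaCl for 2 h, and 1.56 (marked) and 1.55 with NaCl for 8 h. The unmarked arrays alone gave 1.58 with TNFα and, in order of time, 1.38, 2.05 and 1.55 with NaCl. No unmarked value was left for anisomycin.

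With the marked spots kept, the mean of Plk2 was 1.49 ± 0.34 with anisomycin, 1.28 ± 0.42 with TNFα, and 1.21 ± 0.25, 1.88 ± 0.24 and 1.55 ± 0.01 with NaCl for 45 min, 2 h and 8 h (SD, n = 2 each). These are 2.82-fold, 2.44-fold, 2.31-fold, 3.68-fold and 2.94-fold over the pool. The anisomycin, TNFα and 45 min NaCl arrays overlapped. The NaCl arrays at 2 h lay above those at 45 min, by 0.67 on the first arrays and 0.68 on the second. Unlike Plk3, whose ratio fell by 2.05 and 0.75 from 2 h to 8 h, Plk2 fell by 0.49 and 0.16 and stayed above the pool at 8 h.

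**Figure D1:**
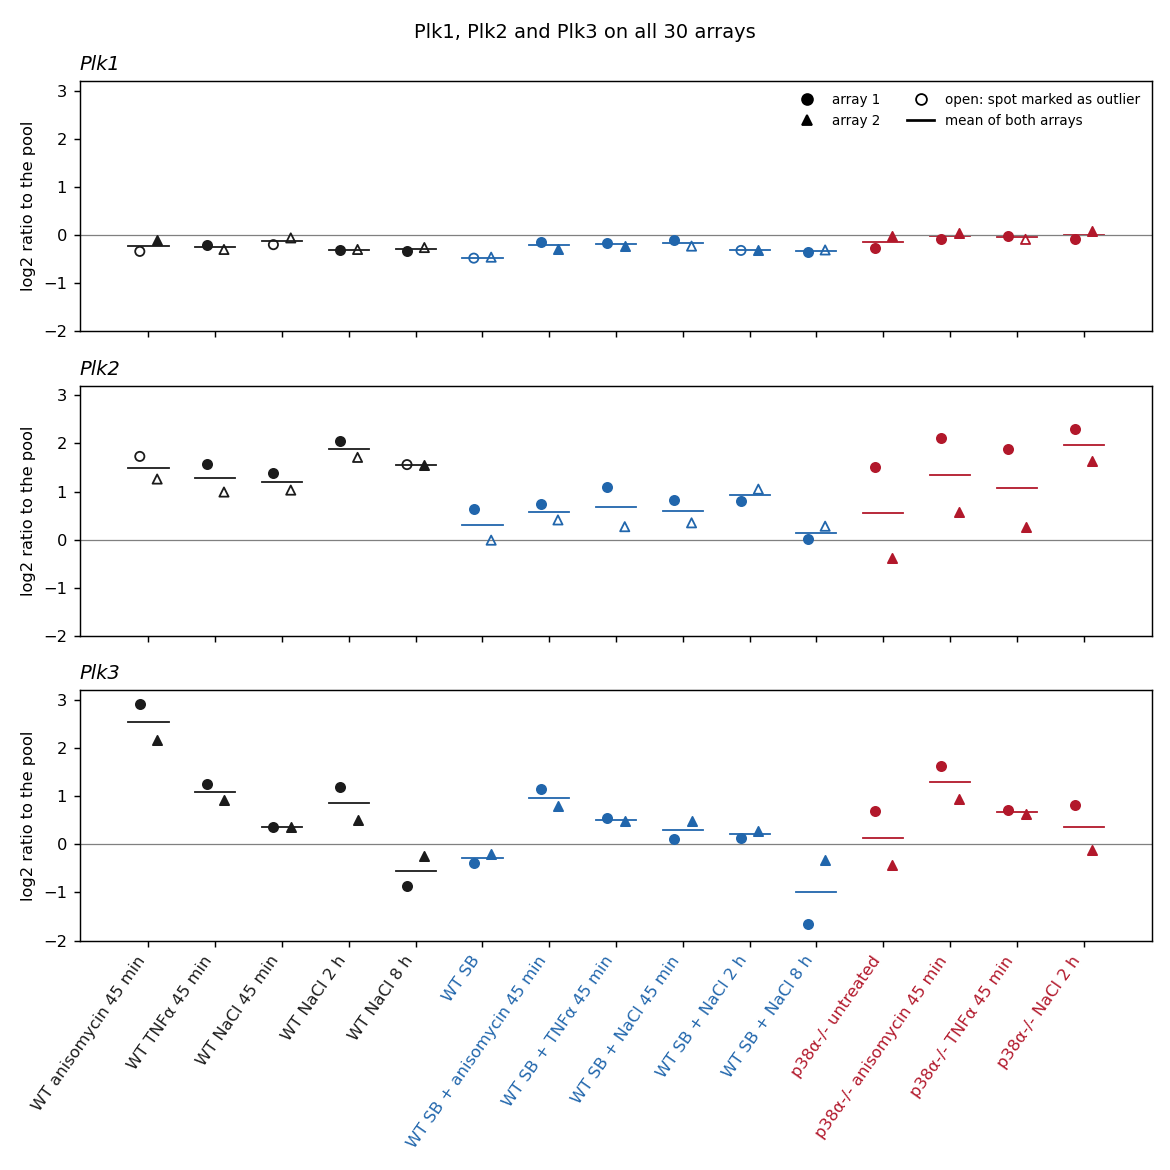
Log2 ratio to the untreated wild type pool (y axis) of Plk1, Plk2 and Plk3 on each array, by group (x axis), with SB meaning SB203580, circles for the first array, triangles for the second, open symbols for spots marked as outliers and bars for the mean of both arrays. Plk1 stays between -0.48 and 0.08, Plk2 is above the pool in all stressed wild type arrays, and Plk3 peaks with anisomycin at 2.91 and 2.16.

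Plk1, which is read by 1 probe, stayed near the pool on every array. Its log2 ratio had a range of -0.48 to 0.08 with a median of -0.22 over the 30 arrays, and 12 of the 30 spots were marked. The probe was well above background in both channels on all 30 arrays. In the stressed wild type groups the means with marked spots kept lay between -0.30 and -0.13. In p38α-/- MEFs the ratio was higher than in wild type MEFs under the same stress in 12 of 12 crossings of their arrays, by 0.02 to 0.39. These crossings use each array more than once. Between the first p38α-/- and the second wild type arrays, which shared a scanning batch, the difference was 0.02 with anisomycin. It was 0.30 with TNFα and 0.21 with NaCl for 2 h, both against marked wild type spots. The lowest mean was -0.47 ± 0.02 (SD, n = 2) with SB203580 alone, where both spots were marked.

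Plk4 is read by 3 probes, and they disagreed. The probe for NM_011495 had log2 ratios of -0.53 to 0.28 over the 30 arrays, of which 16 spots were marked, and the probe for NM_173169 had -0.87 to 0.60 with no marked spot. The third probe was designed on the cDNA AK045082 and ran from -2.69 to 1.20. With NaCl for 45 min it read -2.38 and -1.10, and for 2 h -1.99 and -0.98, whereas the NM_011495 probe read 0.00 and -0.31 (marked) and then -0.11 and 0.00. The NM_173169 probe read 0.00 and -0.37 at 45 min and -0.48 and -0.61 at 2 h, a mean of -0.54 ± 0.09 (SD, n = 2). At 8 h the AK045082 probe was back at -0.36 and -0.10, and the NM_173169 probe was higher than at 2 h by 0.82 and 0.52. With anisomycin the AK045082 probe read 0.34 and 0.96, and with TNFα 0.80 and 1.00. The NM_173169 probe read -0.15 and -0.07 with anisomycin and -0.39 and -0.09 with TNFα.

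The low values of the AK045082 probe came in every group with NaCl for 45 min or 2 h. With SB203580 they were -2.01 and -1.22 at 45 min and -2.48 and -1.67 at 2 h, and in p38α-/- MEFs they were -1.07 and -2.69 at 2 h. The Cy5 signal of this probe was not well above background on any of these 10 arrays, while Cy3 was, so the size of these ratios is uncertain. On the processed signals after Aquantile normalization, Cy5 was taken as no lower than a floor. That floor was the lowest Cy5 signal of any spot flagged well above background on the array. With it, Cy5 was 1.56-fold lower than Cy3 with NaCl for 45 min and 1.51-fold lower for 2 h in wild type MEFs. It was 1.42-fold and 1.75-fold lower at these times with SB203580, 1.44-fold lower at 8 h with SB203580, and 1.38-fold lower in p38α-/- MEFs. The floor need not be the limit of this probe, so the true folds could be smaller and these are not sure bounds. They are also open to a bias between the dyes. Where on Plk4 this probe lies could not be read from the files, so its values stand for the probe and not for the gene.

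**Figure D2:**
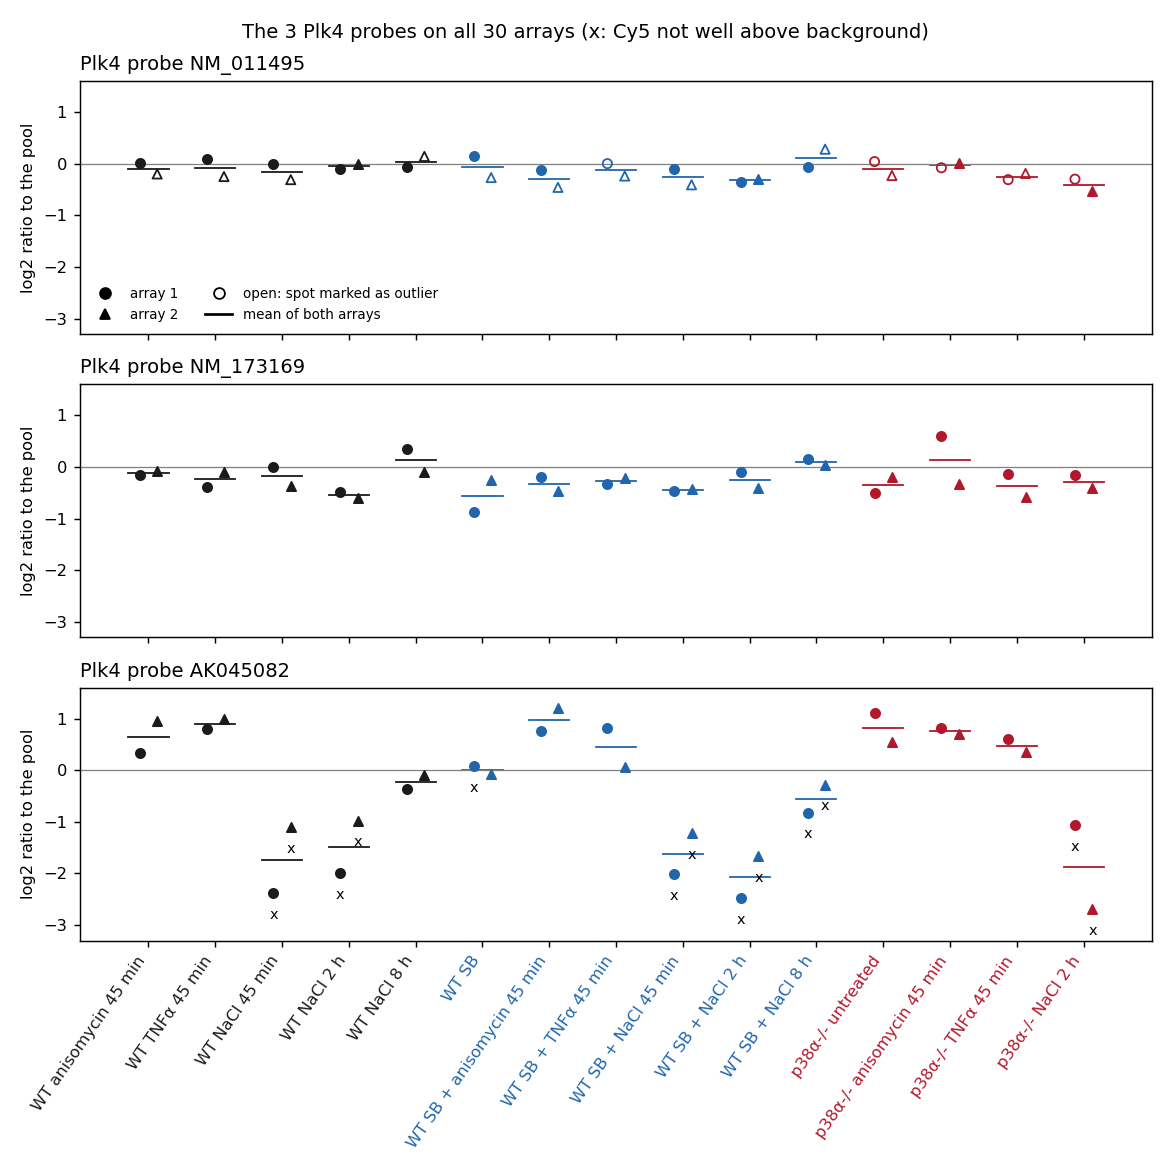
Log2 ratio to the pool (y axis) of each of the 3 Plk4 probes on the 30 arrays by group (x axis), with symbols as for the other Plk genes and an x under arrays whose Cy5 signal was not well above background. The AK045082 probe drops to between -2.69 and -0.98 with NaCl for 45 min or 2 h in each arm, and the other probes stay between -0.87 and 0.60.

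The study called a gene induced from a mean of 2.5-fold, 1.32 on the log2 scale. With marked spots left out, 10 of the 20 combinations of a Plk gene and a wild type stress had both arrays, and 1 was past this fold, Plk3 with anisomycin (all named genes, summed over the 5 stresses: 0.687%). With marked spots kept, all 20 had both arrays and 4 were past it, namely Plk3 and Plk2 with anisomycin and Plk2 at 2 h and 8 h of NaCl (all named genes: 0.523%). As these ratios had chosen the family, nothing is read from the comparison of the shares. The combinations just under the fold were Plk2 with TNFα, at 2.44-fold, and with NaCl for 45 min, at 2.31-fold.

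SB203580 was used to ask which changes need p38 activity. Plk3 with anisomycin fell from 2.91 to 1.14 on the first arrays and from 2.16 to 0.79 on the second, a difference of -1.57 ± 0.28 (SD, n = 2). The 2 groups did not overlap, and the ratio with SB203580 stayed above that of SB203580 alone, which was -0.38 and -0.20. With TNFα the difference was -0.70 and -0.44, with NaCl for 2 h -1.05 and -0.23, and with NaCl for 45 min -0.25 and 0.12. At 8 h of NaCl it was -0.80 and -0.08, but the first arrays of both arms had Cy5 signals not well above background. In all, Plk3 was lower with SB203580 in 9 of 10 array pairs.

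Plk2 was lower with SB203580 in 10 of 10 array pairs, by 0.48 to 1.55 with marked spots kept. With TNFα and with NaCl for 45 min and 2 h, only the pair of first arrays was free of marked spots. No pair was free of them with anisomycin or with NaCl for 8 h. With anisomycin Plk2 was 0.74 and 0.41 (marked), a difference of -0.99 and -0.84. With TNFα it was 1.10 and 0.27 (marked), a difference of -0.48 and -0.72. With NaCl it was 0.83 and 0.35 (marked) at 45 min, 0.80 and 1.05 (marked) at 2 h, and 0.01 and 0.28 (marked) at 8 h. At 8 h the differences were -1.55 and -1.27, a mean of -1.41 ± 0.20 (SD, n = 2), and the arrays with the inhibitor had returned to the pool. SB203580 alone gave 0.64 on the first array and -0.01 (marked) on the second.

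Of the mean differences between the arms measured on both arrays without marked spots, 1 of 10 was lower by at least 1 log2 unit with SB203580, Plk3 with anisomycin (all named genes: 0.255%). With marked spots kept it was 2 of 20, with Plk2 at 8 h of NaCl added (all named genes: 0.188%). For Plk1 the differences ran from -0.17 to 0.18. For the Plk4 probes NM_011495 and NM_173169 they ran from -0.30 to 0.14 and from -0.47 to 0.38.

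SB203580 by itself moved some of these ratios, and taking its value off the inhibitor arm changed the differences. With marked spots kept, the mean differences of Plk2 were larger and past 1 log2 unit in more stresses. They were -1.23 ± 0.56 with anisomycin, -1.27 ± 0.87 with NaCl for 2 h and -1.72 ± 0.65 with NaCl for 8 h (SD, n = 2 each). This came from the first arrays, at -1.63, -1.89 and -2.19, where SB203580 alone read 0.64. On the second arrays, where it read -0.01 (marked), the differences hardly changed, at -0.83, -0.65 and -1.26. Those of Plk3 were smaller with anisomycin, at -1.28 ± 0.16, and with TNFα, at -0.28 ± 0.05, and at 45 min of NaCl the difference turned to 0.22 ± 0.14. For Plk1, which was lowest with SB203580 alone, all differences became positive, from 0.29 to 0.66. The means of the NM_173169 probe of Plk4 likewise became positive, from 0.31 to 0.85.

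**Figure D3:**
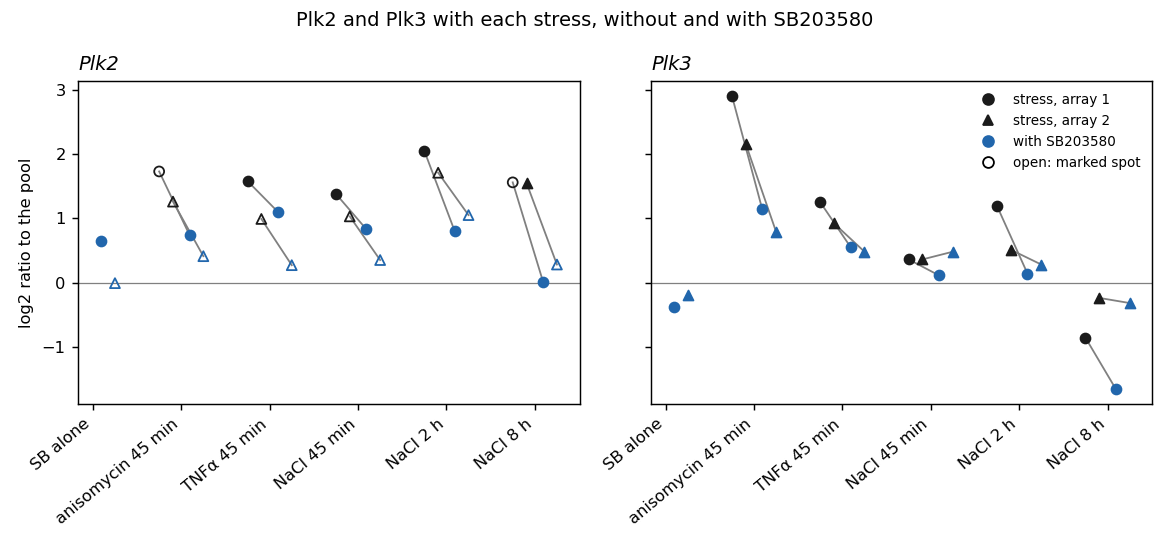
Log2 ratio to the pool (y axis) of Plk2 and Plk3 with each stress (x axis) without (black) and with (blue) SB203580, lines joining arrays of the same replicate number and open symbols marking outlier spots. Plk2 falls along all 10 lines, and Plk3 falls along 9 of 10, the steepest being anisomycin.

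The p38α-/- MEFs ask the same of the kinase itself. Plk3 with anisomycin was 1.63 and 0.94 in p38α-/- MEFs, below both wild type arrays, with a mean difference of -1.25 ± 0.51 (SE, unpaired, n = 2 against 2). With TNFα Plk3 was 0.72 and 0.62, and with NaCl for 2 h it was 0.82 and -0.12. The mean differences from wild type MEFs were -0.42 ± 0.17 with TNFα and -0.50 ± 0.58 with NaCl (SE, unpaired), and the NaCl arrays of the 2 genotypes overlapped. Replicate numbers do not pair arrays across genotypes, and of all 12 crossings of a p38α-/- with a wild type array of the same stress, 11 were lower, from -1.97 to 0.31. Only the first p38α-/- and the second wild type arrays shared a scanning batch. Within it the difference of Plk3 was -0.54 with anisomycin and -0.20 with TNFα, but 0.31 with NaCl. The first p38α-/- array of Plk3 was higher than the second in 4 of 4 groups, by 0.11 to 1.12. In wild type MEFs the arrays of a group differed by -1.34 to 0.74. As the first and second p38α-/- arrays were scanned in different batches, culture and batch cannot be told apart for Plk3 either. Against its own untreated p38α-/- array (0.70 and -0.43), Plk3 was higher with anisomycin by 0.93 and 1.37.

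For Plk2 the 2 sets of p38α-/- arrays stood far apart. Untreated it was 1.51 and -0.39, with anisomycin 2.11 and 0.58, with TNFα 1.89 and 0.27, and with NaCl for 2 h 2.30 and 1.63, none of them marked. The first array was higher in 4 of 4 groups, by 0.66 to 1.90, whereas in wild type MEFs the arrays of a group differed by -0.26 to 0.84. The first p38α-/- arrays were scanned in another batch than the second ones, so the culture and the batch cannot be told apart. The difference from wild type MEFs had no common direction, with 6 of 12 crossings lower, from -1.32 to 0.90. Within the shared scanning batch Plk2 was higher in p38α-/- MEFs, by 0.85 with anisomycin, 0.90 with TNFα and 0.59 with NaCl, against wild type spots that were all marked.

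Against the untreated array of the same number, Plk2 was higher in p38α-/- MEFs in each case. The increase was 0.60 and 0.97 with anisomycin, 0.38 and 0.66 with TNFα, and 0.78 and 2.02 with NaCl for 2 h. The 0.66 crosses scanning batches, since the second TNFα array was scanned apart from the other second p38α-/- arrays. In the p38α-/- comparison 1 of 6 means without marked spots was lower by at least 1 log2 unit, Plk3 with anisomycin (all named genes: 1.30%). It was also the only one of 12 with marked spots kept (all named genes: 0.974%). Without the first wild type array of anisomycin, or without the second p38α-/- one, no mean was.

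**Figure D4:**
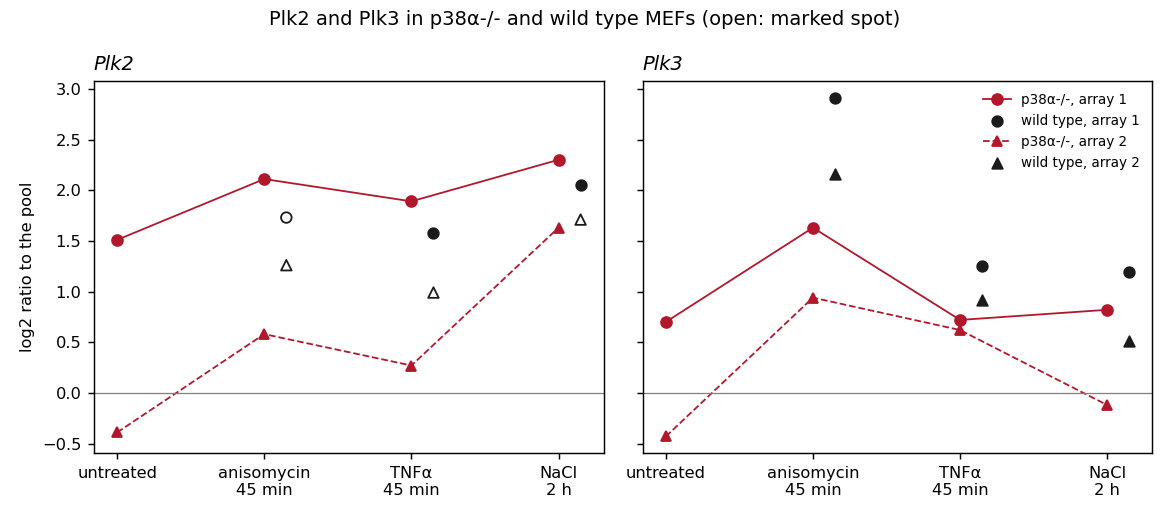
Log2 ratio to the pool (y axis) of Plk2 and Plk3 in p38α-/- MEFs (red; solid line first arrays, dashed line second arrays) and in wild type MEFs (black) by treatment (x axis), open symbols marking outlier spots. The first p38α-/- arrays of Plk2 run from 1.51 to 2.30 and the second from -0.39 to 1.63, and for Plk3 with anisomycin both wild type arrays (2.91, 2.16) lie above the p38α-/- arrays.

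Ordered by the mean over all 15 groups, Plk3 was led by wild type MEFs with anisomycin, whose arrays overlapped with no other group. It was followed by p38α-/- MEFs with anisomycin, wild type MEFs with TNFα, SB203580 with anisomycin and wild type MEFs with NaCl for 2 h, at means of 1.28, 1.08, 0.96 and 0.85, and each of these neighbours overlapped the next. SB203580 with NaCl for 8 h was last at -0.99 ± 0.95, a mean and a place that rest on its first array (-1.66), whose Cy5 signal was not well above background. For Plk2, with marked spots kept, NaCl for 2 h led in p38α-/- and wild type MEFs, at 1.96 ± 0.47 and 1.88 ± 0.24, and these overlapped. The wild type arrays at 2 h of NaCl did not overlap those at 8 h, which came next at 1.55 ± 0.01. From there on each group overlapped its neighbour in the order, and SB203580 with NaCl for 8 h was again last, at 0.15 ± 0.19.

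The genes whose 15 group means were most like those of a Plk gene were found by Pearson's r among named genes with a spread (SD of group means) of at least 0.3. These r describe 15 points that share the pool and carry no p. For Plk3 they were Zcchc3, Zfp36 and 3110018C07Rik, each at r = 0.88 among 3363 genes. With marked spots kept they were Atf3 (0.92), Egr1 (0.91) and Zcchc3 (0.89) among 3153 genes. Atf3 and Egr1 encode transcription factors of the early stress response, and Zfp36 a protein that promotes decay of AU-rich mRNAs.

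Plk2 had no unmarked value in a group and was ranked with marked spots kept. The 3 most like it were Zfp36l1 (0.90), which encodes a relative of the Zfp36 product, Dusp4 (0.89), a MAP kinase phosphatase, and Adamts1 (0.86), a secreted metalloprotease. Adamts1 showed a like split of the p38α-/- arrays, at 0.80 and -0.81 untreated. For Plk4 they were Map3k14 (0.94), 9830163H01Rik (0.91) and C230075M21Rik (0.90), a ranking that averages the 3 disagreeing probes. The Plk1 means had an SD of 0.13, below the 0.3 asked of other genes, and with marked spots kept Lao1, Fbp1 and Sema3e, each at 0.87, were closest. Lao1 read 0.00 on both arrays of untreated p38α-/- MEFs and of SB203580 with NaCl for 8 h. Its arrays with SB203580 and anisomycin read -0.45 and 1.58, so its likeness is uncertain.

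Genes listed as partners and targets of the family were called both higher and lower, except in the centriole list, where all calls were lower. Of 25 genes of mitotic entry and Plk1 partners, between 10 and 17 were measured on both arrays of a stress, and limma with Benjamini-Hochberg adjustment called 1 higher and 1 lower in each stress of 45 min, 2 higher and 1 lower after 2 h, and 1 higher and 3 lower after 8 h. Of all genes tested, anisomycin had 5.72% called higher and 6.28% lower, and TNFα had 5.25% higher and 5.72% lower. NaCl had 4.69% higher and 5.19% lower at 45 min, 5.24% higher and 4.69% lower at 2 h, and 11.0% higher and 11.2% lower at 8 h. The list's median log2 ratio was 0.21, 0.15, 0.11, 0.00 and -0.13 in that order of stresses, against 0.00 or 0.01 for all genes.

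Ccna2, the cyclin of S phase and early mitosis, was higher in 3 stresses, for example by 0.70 ± 0.12 (SE, n = 2, limma adjusted p = 0.00108) with anisomycin. It was as high without stress, at 0.68 with SB203580 alone, and was 0.38 in untreated p38α-/- MEFs. Ccnb2, a mitotic cyclin, was higher by 0.45 ± 0.09 (SE, n = 2, limma adjusted p = 0.00264) at 2 h of NaCl and lower by 0.42 (SE 0.09, n = 2, limma adjusted p = 0.00162) at 8 h. Unstressed, its mean was 0.35 with SB203580 alone and 0.17 in untreated p38α-/- MEFs. Cdk1, their kinase partner, was lower with TNFα and with NaCl for 45 min, where its mean was -0.40 ± 0.11 (SE, n = 2, limma adjusted p = 0.0249). Without stress its mean was -0.58 with SB203580 alone and -0.49 in untreated p38α-/- MEFs. Ect2, a regulator of cytokinesis that binds Plk1, was higher at 8 h of NaCl, at 1.50 ± 0.24 (SE, n = 2, limma adjusted p = 0.00046).

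Of 16 genes of centriole duplication and Plk4 partners, 13 were found on the array, and between 7 and 13 were tested. None was called higher, while 2 were called lower with anisomycin, 1 with TNFα and 4 with NaCl for 8 h. The shares called lower among all genes tested were 6.28%, 5.72% and 11.2% in these stresses. With the replicate number as a block, the 5 stresses gave 12 calls in place of 7, and all genes gave 16320 in place of 10356. Btrc, the ubiquitin ligase subunit that targets Plk4 for degradation, was lowest, at -1.26 ± 0.16 (SE, n = 2, limma adjusted p = 1.67e-05) with NaCl for 8 h. Pcnt, a scaffold of the centrosome, was lower with anisomycin and TNFα, at -0.41 and -0.48. Unstressed, it was -0.72 on the 1 unmarked array of SB203580 alone, and its mean was -0.29 in untreated p38α-/- MEFs. Nedd1 and Cetn3, both centrosomal, were lower at 8 h of NaCl, at -0.63 and -0.43. The list's median was -0.26 at 8 h of NaCl and between -0.03 and 0.15 in the other stresses. Without either array of anisomycin or of TNFα, the 7 calls became 4.

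Of 17 genes listed as Plk2 and Plk3 substrates or as part of the p53 arrest response, 3 were lower with anisomycin, 2 with NaCl for 45 min and 6 with NaCl for 8 h, while 1 was higher at 2 h and 3 at 8 h, with between 10 and 16 tested. No gene of this list was called with TNFα. Among all genes tested, 6.28%, 5.19% and 11.2% were called lower with anisomycin and with NaCl for 45 min and 8 h. The shares called higher were 5.24% at 2 h and 11.0% at 8 h. The list's median ran from 0.02 to 0.09 apart from -0.27 at 8 h. Chek2, the checkpoint kinase that Plk3 phosphorylates, was lower in 3 stresses, down to -1.01 ± 0.15 (SE, n = 2, limma adjusted p = 0.000128) at 8 h of NaCl. It was also below the pool without stress, at -0.69 with SB203580 alone and -0.65 in untreated p38α-/- MEFs. Ppm1d, a phosphatase induced by p53, was higher at 8 h, at 1.44 ± 0.15 (SE, n = 2, limma adjusted p = 1.93e-06). Hif1a, a transcription factor of the hypoxia response, was higher at 8 h by 1.77 ± 0.21 (SE, n = 2, limma adjusted p = 0.000574), and Sesn2, a p53 target, was lower by 0.36 at 8 h. Without stress, Hif1a was 1.71 on the 1 unmarked array of SB203580 alone and 0.40 on that of untreated p38α-/- MEFs. Sesn2 was -0.78 on the 1 unmarked array of SB203580 alone.

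The immediate early genes, the class to which Plk2 and Plk3 were first assigned, were called higher in 28 and lower in 1 of 51 tests of a gene in a stress. Of 18 genes, only 6 had both arrays unmarked with anisomycin, and all 6 were called higher. The counts were 8 of 10 with TNFα, 4 of 9 with NaCl for 45 min, 8 of 14 for 2 h and 2 of 12 for 8 h, when 1 was lower. Of all genes tested, 5.72% were called higher with anisomycin, 5.25% with TNFα, and 4.69%, 5.24% and 11.0% with NaCl for 45 min, 2 h and 8 h. The list was chosen with earlier results of these data known. The list's median log2 ratio was 3.22, 2.33, 1.30, 1.22 and -0.06 in that order of stresses. Jun reached 6.03 ± 0.22 (SE, n = 2, limma adjusted p = 4.48e-12) with anisomycin and was at -0.17 (SE 0.22) at 8 h of NaCl. Egr1 went from 4.71 ± 0.25 with anisomycin to -1.27 ± 0.25 (SE, n = 2, limma adjusted p = 0.00162) at 8 h of NaCl. Fos was at 3.96 ± 0.33 (SE, n = 2) at 2 h of NaCl and Zfp36 at 3.09 ± 0.19 with TNFα, while with anisomycin each had 1 unmarked array, at 4.41 for Fos and 4.08 for Zfp36. With SB203580 alone Jun was at 1.84 and Fos at 2.32.

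Beside these, the mean of Plk3 was 2.53 with anisomycin and -0.55 at 8 h of NaCl, and the mean of Plk2, with marked spots kept, was 1.49 and 1.55. Jun, Fos and Zfp36 had means between -0.34 and 0.11 at 8 h. In p38α-/- MEFs with anisomycin Jun was at 4.83 ± 0.25, Fos at 3.37 ± 0.09 and Zfp36 at 1.46 ± 0.00 (SD, n = 2 each), where Plk3 was at 1.28 ± 0.49 (SD, n = 2).

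**Figure D5:**
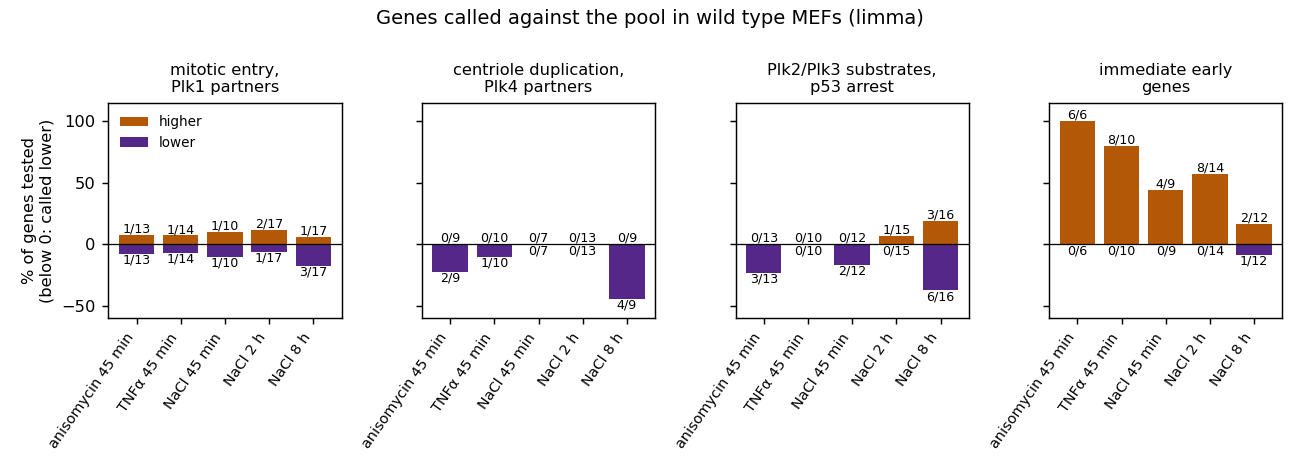
Share of the genes tested in each list (y axis, percent) that limma called higher (orange, upward) or lower (purple, downward) than the pool in wild type MEFs with each stress (x axis), with counts over genes tested at each bar. Immediate early genes are called higher in 6 of 6 with anisomycin and 2 of 12 at 8 h of NaCl, and the centriole list has no gene called higher.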

How the data were processed

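The authors labelled treated samples with Cy5 and the untreated pool with Cy3 and extracted the signals with Agilent's Feature Extraction. Its version is 8.1.1.1 in the headers, whereas the study's methods name a later one. The deposited files hold processed intensity values, with dim signals replaced by a surrogate and dyes normalized by linear and LOWESS steps, and the log10 ratio of Cy5 to Cy3. A deposited series matrix holds 1 value per probe on the log2 scale, used as an alternative. Control spots were left out, as were those that the software had marked as outliers (6.78% to 44.8% of spots an array), log10 ratios were converted to log2, and spots and then probes were averaged (Python 3.11, pandas, R with limma 3.58.1). With the members chosen by ratios already known, no test was made on them. For other genes limma fitted 15 group means over 30 arrays and tested each against a ratio of 0 at an adjusted p of 0.05 (Benjamini-Hochberg, all genes measured on both arrays), which covers the spread between the treated arrays alone. The members and all gene lists were chosen with earlier results of these data known. Named were the Plk genes, Mapk14, from each list the 4 genes called in most wild type stresses, and the 3 genes most like each Plk gene.

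Differences between the 2 arrays correlated between groups above 0.1 in 55 of 55 wild type pairs and 6 of 6 p38α-/- pairs, and in 6 of 44 across genotypes, so that replicate numbers pair samples within a genotype. They follow 4 scanning batches, where the first wild type arrays form 1 batch and the second wild type arrays share another with the first p38α-/- arrays. Alternatives were normexp with offset 50 and loess, the series matrix, marked spots kept, spots well above background, the brightest probe, median centring, a replicate block, scanning batch as a term, fewer arrays or genes, and each array left out. Added after the data were seen was the use of NM probes alone. The 2 arrays per group limit the precision.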

Additional observations from a re-analysis of the deposited data

Results flagged for a closer look

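The AK045082 probe of Plk4 with TNFα differed in sign between genotypes by the reference used. Over the pool it was 0.80 and 1.00 on the wild type arrays and 0.60 and 0.35 on the p38α-/- arrays, all above it. Over untreated p38α-/- MEFs (1.11 and 0.54) the p38α-/- arrays were at -0.51 and -0.19. The -0.19 crosses scanning batches, since the second TNFα array was scanned apart from the second untreated one. The NM_173169 probe of Plk4 was -0.39 and -0.09 with TNFα in wild type MEFs, and -0.34 and -0.22 when TNFα was given with SB203580, which is 0.53 and 0.04 over SB203580 alone. Neither difference was tested, and the wild type values are set against the pool while the others are set against an array of the same arm.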

How the results depend on the processing

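The Plk counts above a 2.5-fold mean (1 with marked spots left out) became 4 with these spots kept, 6 with the series matrix and 2 at a 2-fold threshold, and 1 to 2 with 1 array left out, the 2 arising without the second array of TNFα or of NaCl for 45 min or 2 h, or without the first of NaCl for 8 h, which carry the marked Plk2 spots. Those lower with SB203580 (1) became 2 with marked spots kept and 2 with the series matrix, and were 1 to 2 with 1 array left out. The 2 arose without the second array of SB203580 and NaCl for 8 h, where Plk3 was added. That rests on its first array (-1.66), whose Cy5 signal was not well above background. Those lower in p38α-/- MEFs (1) were 0 to 1 with 1 array left out, 0 without the first wild type or the second p38α-/- array of anisomycin. By construction, keeping marked spots tests more gene and stress pairs, 20 in place of 10. Normexp with loess, median centring, the brightest probe, probes well above background and NM probes alone gave the same 3 counts.

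The calls of the mitotic list (13 of 71 tests) became 38 of 125 with marked spots kept and 48 of 125 with the series matrix. Those of the centriole list (7 of 48) became 20 of 65 in each of these settings. Those of the list of Plk2 and Plk3 substrates (15 of 66) became 27 and 34 of 85. Those of immediate early genes (29 of 51) became 61 and 60 of 90. Those of all genes (10356 of 79277) became 24288 of 108445 and 25683 of 105572. The brightest probe left 4 calls of 34 tests in the centriole list. With the replicate block within genotype the counts were 18, 12, 19, 31 and, for all genes, 16320, and with scanning batch as a term the centriole list had 12 and all genes 16029. With 1 array left out the ranges were 9 to 14, 4 to 8, 11 to 15, 26 to 32 and 8336 to 9891. The cause of these shifts was not tested. Plk4 means move with the probes used. With anisomycin the mean was 0.26, but 0.01 with the brightest probe and -0.07 with NM probes. With NaCl it was -0.76 at 45 min and -0.70 at 2 h, but 0.00 and -0.06 with the brightest probe and -0.19 and -0.30 with NM probes. Low signal limits Plk3 at 8 h of NaCl and the AK045082 probe of Plk4.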
